A study of Rattus norvegicus with 11 samples.

Results

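The interleukin 1 (IL-1) family and the inflammasome were followed through 10 genes, matched by symbol among the 30560 genes listed for each rat. They were the agonists Il1a and Il1b, the receptor antagonist Il1rn, the related cytokine Il18, the receptors Il1r1 and Il1r2, and the inflammasome genes Nlrp3, Pycard, Casp1 and Gsdmd. All 10 were found and passed the filter on low counts, Il1a, Il1b, Il1rn and Il1r2 only through the hemorrhage groups, since the Normal rats held 5 and 16 counts of Il1a and 1 to 5 of each of the others. RNA was sequenced from striatum of adult male Sprague-Dawley rats at day 3. Bacterial collagenase VII-S, an enzyme that breaks down the vessel wall, was injected into the right striatum to produce intracerebral hemorrhage (ICH). IC rats (common ICH, n = 3) received 0.2 U in 1.0 µL of saline, and IS rats (severe ICH, n = 3) received 0.6 U in 3.0 µL. IS-HA rats (n = 3) received the IS dose, and 150 µL of the hematoma was aspirated through a catheter 6 h later. Normal rats (n = 2) received neither collagenase injection nor aspiration, and no group is labelled as given saline alone, so the needle and saline cannot be told apart from the hemorrhage in any comparison with Normal. In the same way, the catheter pass cannot be told apart from the removal of blood in IS-HA. Each library carries a replicate number in the labels and was taken as 1 rat, and p-values measure the spread between these libraries.

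IL-1α and IL-1β, the products of Il1a and Il1b, signal through IL1R1 and its accessory chain to NF-κB. IL1RN occupies the same receptor without signalling, and IL1R2 is a decoy that binds IL-1 but lacks the signalling domain. IL-1β and IL-18 are made as inactive precursors. The sensor NLRP3 and the adaptor ASC, encoded by Pycard, assemble an inflammasome in which caspase-1 cleaves both precursors and gasdermin D, whose fragment forms pores in the membrane. In the brain IL-1β and the inflammasome are known mainly from microglia and infiltrating myeloid cells, and IL1R1 from endothelial cells and some neurons. RNA levels do not report cleavage or secretion.

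The counts assigned to genes ranged from 6701301 in IS-HA replicate 2 to 18817645 in IC replicate 3, so that a floor of 3 counts stood between 0.159 and 0.448 CPM (counts scaled to the size of the library). Floors and counting intervals cover counting error only. All 8 striatal neuron markers, among them Ppp1r1b, Drd1 and Drd2, were detected in every group. TPM, transcript units scaled to a common sum in each library, is the unit of all levels given here. The markers had a summed level of 6052 to 6464 TPM in Normal, 2650 to 5337 in IC, 1309 to 3407 in IS and 1323 to 2939 in IS-HA. In this bulk tissue, fewer cells of a type and less RNA per cell cannot be told apart. IS-HA replicate 2 stood apart from the other libraries of its group. Its log2 CPM changed by -0.26 per doubling of gene length, against 0.06 and 0.05 in IS-HA replicates 1 and 3, and its summed neutrophil markers were the highest of the 11 rats. This slope also moved with the groups, at 0.15 and 0.26 in Normal, 0.06, 0.05 and -0.02 in IC, and -0.07, -0.13 and -0.16 in IS. Short genes such as Il18, Pycard and Il1r2 (0.387, 0.406 and 0.460 times the length of the median gene tested) and long ones such as Nlrp3 and Il1r1 (1.29 and 1.61 times) lie at opposite ends of it. With a gene length correction, added after the data were seen, the log2 fold change in IS against Normal was 3.75 for Pycard (4.27 uncorrected), 4.89 for Il1r2 (5.35), 2.68 for Nlrp3 (2.50) and 1.92 for Il1r1 (1.60), and all stayed called.

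The promoters of Il1b and Il1rn are shown because this agonist and antagonist had the largest log2 fold changes of the 10 genes in IC and IS against Normal, and that of Nlrp3 because its log2 fold change between IS and IC was the closest to 0. Each run covers 250 bases before to 50 bases after the annotated start, 5′ to 3′ on the gene's strand, from RefSeq (build GRCr8; the files themselves were made on mRatBN7.2). Capitals mark matches on either strand to TATAAA (the TATA box), TGANTCA (AP-1), GAGGAA (PU.1), TTGCNNAA (C/EBP) and an NF-κB motif.
Il1b, chr3:137036532-137036831, strand minus: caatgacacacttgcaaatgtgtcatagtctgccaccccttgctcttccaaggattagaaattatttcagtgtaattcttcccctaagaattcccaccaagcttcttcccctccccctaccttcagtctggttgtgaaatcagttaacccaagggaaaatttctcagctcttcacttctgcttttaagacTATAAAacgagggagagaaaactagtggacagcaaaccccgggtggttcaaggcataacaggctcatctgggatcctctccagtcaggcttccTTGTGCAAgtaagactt
Il1rn, chr3:27520072-27520371, strand plus: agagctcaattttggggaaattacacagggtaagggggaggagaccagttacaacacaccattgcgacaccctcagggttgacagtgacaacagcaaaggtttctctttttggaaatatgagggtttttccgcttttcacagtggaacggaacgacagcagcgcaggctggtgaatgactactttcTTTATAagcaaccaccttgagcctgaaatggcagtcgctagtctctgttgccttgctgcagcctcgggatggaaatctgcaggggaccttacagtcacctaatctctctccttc
Nlrp3, chr10:44827848-44828147, strand plus: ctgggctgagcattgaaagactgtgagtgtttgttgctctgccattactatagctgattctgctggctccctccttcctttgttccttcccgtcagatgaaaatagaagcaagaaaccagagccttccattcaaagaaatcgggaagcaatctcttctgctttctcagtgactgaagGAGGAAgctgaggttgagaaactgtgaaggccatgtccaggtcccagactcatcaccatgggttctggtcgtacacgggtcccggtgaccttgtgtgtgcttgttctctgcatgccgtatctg
The TATA box matched at position -60 of Il1b and, on the opposite strand, at position -64 of Il1rn. It also matched at -32 and, on the opposite strand, at -237 of Il1a, and 14.2% of the 33469 promoters of this length held it. The C/EBP motif, held by 10.6% of promoters, matched at position 34 of Il1b. The PU.1 motif, held by 27.6%, matched at position -73 of Nlrp3. A PU.1 match was also present in Il1a and Casp1, an AP-1 match (7.33% of promoters) in Il1a and Il18, and an NF-κB match (7.51%) in Il1r1. None of these motifs matched in the Pycard window. AP-1 reads the same on both strands and was counted once. Promoters were found for 8 of the 10 genes.

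In Normal striatum the inflammasome genes and Il18 were present at low levels, and Il1b, Il1rn and Il1r2 were near the floor. Mean TPM, which is scaled by gene length and so allows levels of different genes to be set side by side, was 4.99 ± 0.843 (SD, n = 2) for Pycard, 4.24 ± 0.568 for Gsdmd and 3.92 ± 1.31 for Il18. The lowest were Il1b at 0.317 ± 0.0448, Il1r2 at 0.241 ± 0.207 and Il1rn at 0.193 ± 0.184, whose values overlapped each other. In all 3 hemorrhage groups Pycard had the highest level of the 10 genes, above every rat's value of the next gene. Il1rn was last of 10 in Normal and second in IS, where its mean of 30.9 ± 2.70 overlapped Gsdmd at 30.3 ± 3.37 and Il18 at 29.8 ± 13.6. Il1a had the lowest mean in IS (2.38 ± 1.69) and in IS-HA (2.42 ± 1.10), where its values overlapped those of Il1r2.

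**Figure D1:**
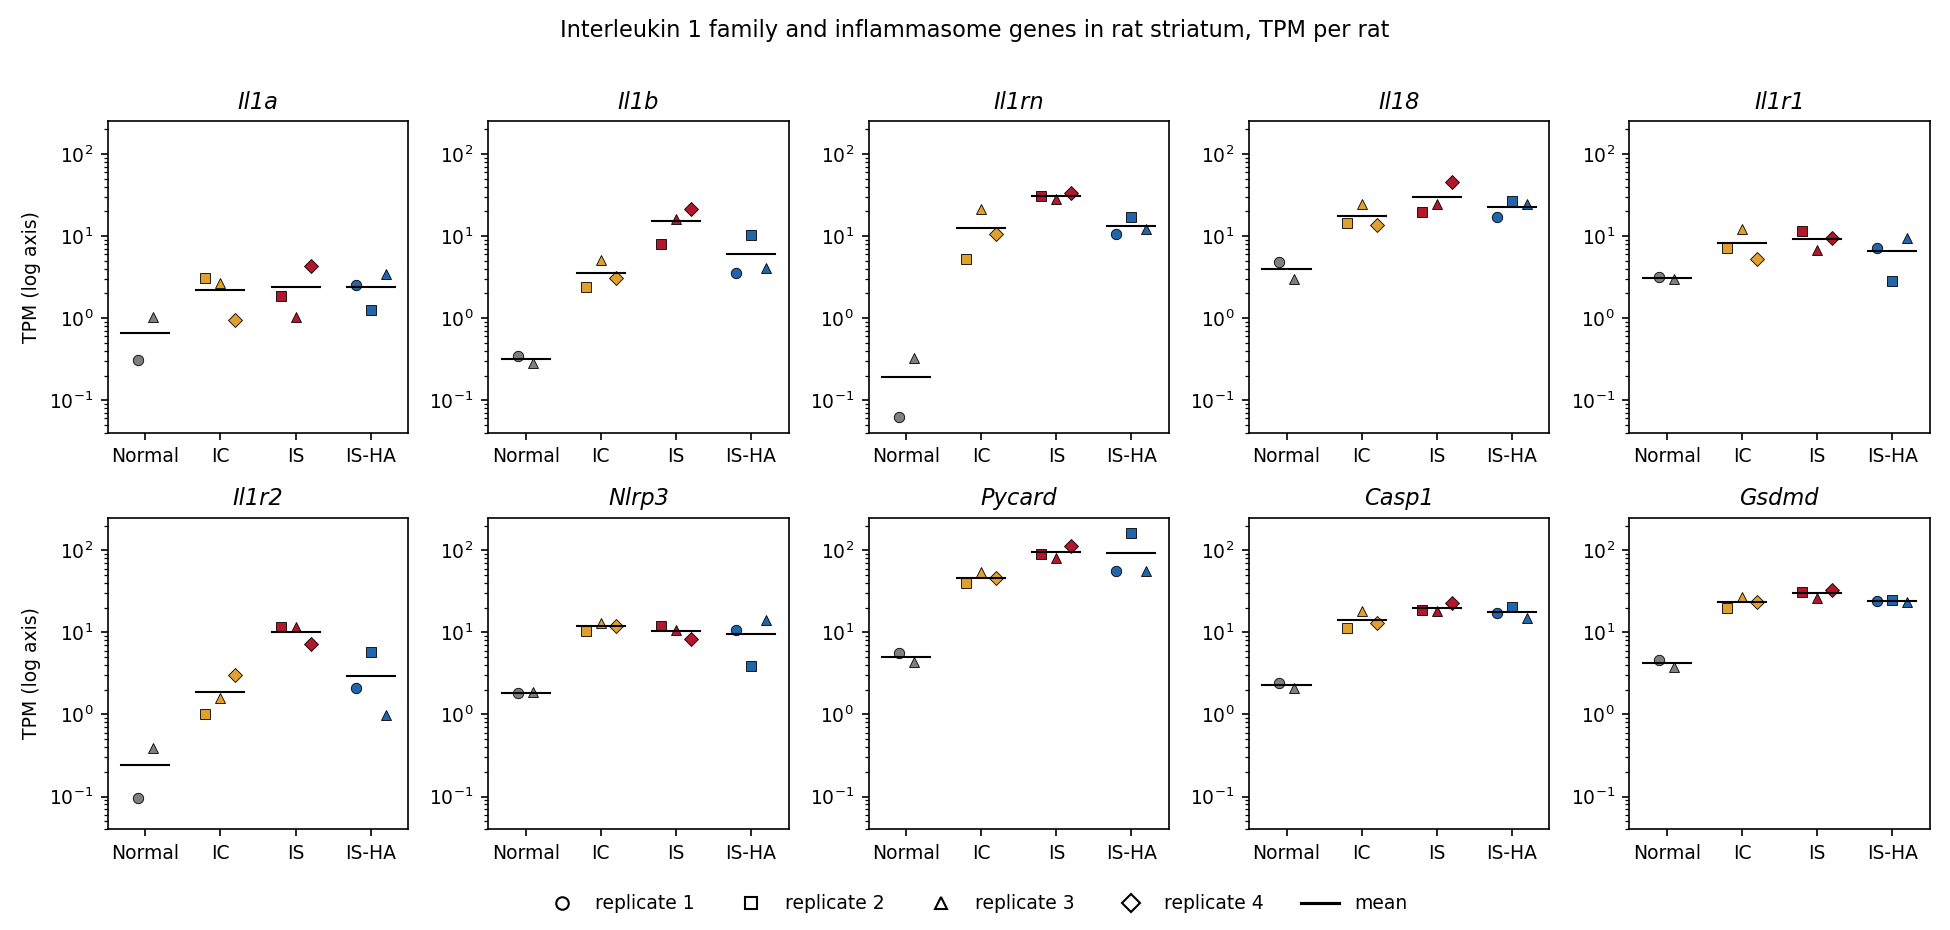
Level of each gene per rat in TPM on a log axis, with points for rats and a bar for the group mean. Il1b, Il1rn and Il1r2 start lowest in Normal and stand highest in IS, whereas Nlrp3 stands between 8.39 and 13.2 TPM in all IC and IS rats.

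The first question was how the genes differed from Normal after each kind of hemorrhage. With edgeR's quasi-likelihood test, called at an adjusted p under 0.05 and a log2 fold change of at least 1, 8 of 10 were higher in IC, where 10.9% of the 15742 genes tested were called higher. In IS 9 of 10 were higher (18.8% of all genes tested), and in IS-HA 8 of 10 were higher (15.1% of all genes tested). None of the 10 was lower, against 2.66%, 17.0% and 7.71% of all genes tested. Since Il1a, Il1b, Il1rn and Il1r2 passed the filter only where they are high, these counts describe the genes and carry no test. Of the 6 genes with at least 10 counts in every rat, 6, 6 and 5 were called higher in that fit (9.86%, 17.3% and 14.0% of its genes). The median log2 fold change of the 10 genes was 2.60 in IC, 3.04 in IS and 2.74 in IS-HA, against 0.00, 0.02 and 0.06 over all genes tested, and without those 4 genes it was 2.48, 2.90 and 2.52. edgeR did not call Il1a in any of the 3, Il1r2 in IC or Il1r1 in IS-HA. DESeq2's Wald test called 9, 10 and 9 of 10 (11.9%, 19.2% and 15.7% of all genes), adding Il1r2 in IC and Il1a in IS and IS-HA, and limma's voom called 9, 9 and 10 (12.7%, 19.2% and 14.1%), adding Il1r2 in IC and Il1a and Il1r1 in IS-HA. All 3 comparisons share the same 2 Normal rats. Leaving out 1 rat moved the calls over all genes as well. Without Normal replicate 3 the calls were 4 in IC (4.92% of all genes higher) and 5 in IS-HA (7.48%), and in IC they were 5 without Normal replicate 1 (6.43%) and 5 without IC replicate 3 (7.71%). Without IS-HA replicate 2 they were 9, 10 and 9 (12.8%, 19.7% and 12.7%).

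The second question was whether the genes differed with severity (IS against IC) and with aspiration (IS-HA against IS). edgeR called 0 of 10 in both. In IS against IC 4 had an unadjusted p under 0.05 and a log2 fold change of at least 1 either way (Il1b, Il1rn, Il1r2 and Pycard). Of all genes tested 8.51% met the same 2 cutoffs. DESeq2's Wald test called Il1b, Il1rn and Il1r2 (1.63% of all genes called higher), limma's voom these 3 and Pycard (2.15%) and limma on log2(TPM + 1) 0. Over all genes edgeR called 0.00% either way. In TPM all IS rats stood above all IC rats for 4 of 10 genes, against 15.4% of all genes tested, and below for 0, against 18.0%. In IS-HA against IS 3 met these cutoffs of unadjusted p and log2 fold change (Il1b, Il1rn and Il1r2), against 3.65% of all genes tested. In that comparison edgeR called 0.00635% of all genes either way. DESeq2's Wald test called 0 of 10 (0.121% of all genes lower), limma's voom Il1b, Il1rn and Il1r2 lower (0.603%) and limma on log2(TPM + 1) 0. All IS-HA rats stood below all IS rats for 3 of 10 genes (Il1rn, Il1r2 and Gsdmd), against 6.37% of all genes, and above for 0, against 3.60%. Without IS-HA replicate 2, edgeR called Il1b, Il1rn, Il1r2 and Pycard higher in IS than in IC (2.19% of all genes called higher). It called Il1b and Il1r2 lower in IS-HA than in IS (0.541% called lower). For IS against IC this fit left out no rat of the groups compared. Fits of only the groups compared called 0 of 10 in both comparisons. So did fits without any other single IC, IS or IS-HA rat.

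**Figure D2:**
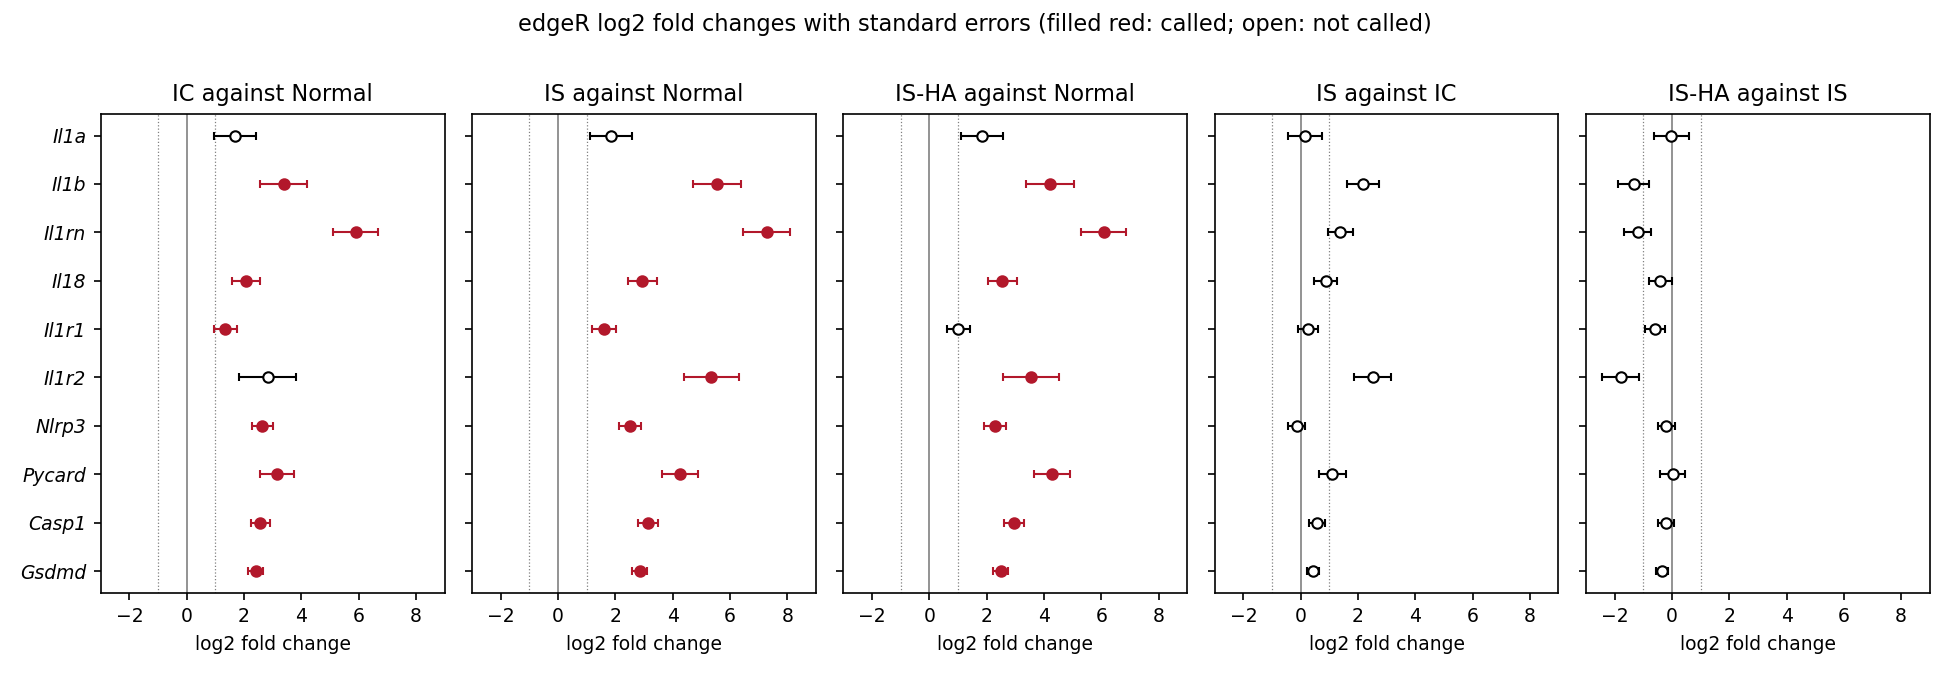
log2 fold change of each gene with its standard error in the 5 comparisons, where filled red points passed the call and open points did not. Against Normal all points lie above 0, while in IS against IC the points spread from -0.14 for Nlrp3 to 2.52 for Il1r2.

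Il1b, which encodes the main IL-1 secreted by myeloid cells, rose in all 3 hemorrhage groups, with the call in IC lost when either Normal rat or IC replicate 3 was left out. Il1b stood at 0.348 and 0.285 TPM in the Normal rats and at 2.38, 5.18 and 3.07 TPM in IC. It stood at 8.04, 16.2 and 21.2 TPM in IS and at 3.52, 10.3 and 4.09 TPM in IS-HA. Every IS rat was above every IC rat, and the IS-HA rats overlapped IS only through replicate 2. Against Normal, Il1b rose by a log2 fold change of 3.38 ± 0.82 (SE) in IC (adjusted p = 0.0176), 5.56 ± 0.84 in IS (adjusted p = 0.000542) and 4.22 ± 0.83 in IS-HA (adjusted p = 0.00405). In IC the adjusted p was 0.0902 without Normal replicate 1, 0.16 without Normal replicate 3, 0.0609 without IC replicate 3 and 0.171 with the replicate block, and in IS-HA it was 0.0534 without Normal replicate 3. The value in IS-HA was 3.40 ± 0.66 without IS-HA replicate 2 (adjusted p = 0.0045). The Normal rats held only 9 Il1b counts in all, and counting error alone gave a 95% interval of 24.0 to 102-fold for IS (exact Clopper-Pearson on summed counts). IS against IC gave a log2 fold change of 2.18 ± 0.55 that was not called (adjusted p = 0.147, and 0.00896 to 0.516 over the alternatives). IS-HA against IS gave -1.34 ± 0.54 (adjusted p = 0.55). With IS-HA replicate 2 left out this was -2.16 ± 0.47 (adjusted p = 0.041).

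Il1a, which is active without caspase-1 and is held in many cell types, had few counts throughout (5 to 46 per rat). It stood at 0.311 and 1.02 TPM in Normal, 3.09, 2.66 and 0.945 in IC, 1.85, 1.02 and 4.27 in IS, and 2.56, 1.26 and 3.44 in IS-HA. The lowest IC rat was below the higher Normal rat, and all 3 hemorrhage groups overlapped each other. The log2 fold changes of 1.69 ± 0.73 in IC, 1.85 ± 0.74 in IS and 1.83 ± 0.74 in IS-HA had adjusted p values of 0.128, 0.0591 and 0.0788, and with DESeq2's Wald test 0.0873, 0.0281 and 0.0477. IS differed from IC by 0.16 ± 0.60 on the log2 scale, a value whose sign changed when single rats were left out.

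The antagonist Il1rn had the largest fold change of the 10 genes in all 3 comparisons with Normal. Its TPM was 0.0631 and 0.323 in Normal and 5.22, 21.6 and 10.6 in IC. In IS it was 30.9, 28.2 and 33.6, and in IS-HA 10.6, 17.3 and 12.3. The IS rats lay close together and above every IC and IS-HA rat, and the IS-HA values lay within the range of IC. The log2 fold change was 5.90 ± 0.79 in IC (adjusted p = 0.000675), 7.28 ± 0.81 in IS (adjusted p = 9.95e-05) and 6.08 ± 0.80 in IS-HA (adjusted p = 0.000429). These rest on 1 and 5 counts in the Normal rats, for which the 95% counting interval (exact Clopper-Pearson) in IS ran from 73.3 to 438-fold. IS against IC gave 1.39 ± 0.45 (adjusted p = 0.162) and IS-HA against IS -1.20 ± 0.46 (adjusted p = 0.543), and neither was called. They were, without IS-HA replicate 2, 1.38 ± 0.40 (adjusted p = 0.0462) and -1.59 ± 0.47 (adjusted p = 0.0673).

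The level of the antagonist relative to the agonist was compared within each rat, where library scaling cancels. Il1rn stood at 0.181 and 1.13 times the TPM of Il1b in the Normal rats. The ratio was 2.19, 4.18 and 3.47 in IC, 3.85, 1.74 and 1.58 in IS, and 3.01, 1.68 and 3.01 in IS-HA. Il1rn exceeded Il1b in all 9 hemorrhage rats and, on 5 counts against 4, in 1 of the 2 Normal rats, and the hemorrhage groups overlapped. The log2 ratio differed between IS and IC by -0.53 (two-sided exact permutation test, p = 0.3, n = 3 each) and between IS-HA and IS by 0.17 (exact p = 0.9). Each hemorrhage group was above Normal, by 2.28 to 2.80 on the log2 scale, with an exact p = 0.2, the smallest that 3 against 2 rats allow. With p-values adjusted over the 10 ratio tests the lowest was 0.4.

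Il18, the other cytokine that caspase-1 matures, was already present in Normal at 4.85 and 3.00 TPM. It stood at 14.4, 24.4 and 13.5 TPM in IC, 19.7, 24.5 and 45.2 in IS, and 17.2, 26.9 and 24.7 in IS-HA. All hemorrhage rats were above Normal and the 3 hemorrhage groups overlapped. Il18 rose by a log2 fold change of 2.07 ± 0.50 in IC (adjusted p = 0.0166), 2.94 ± 0.51 in IS (adjusted p = 0.00117) and 2.54 ± 0.51 in IS-HA (adjusted p = 0.00443). The call in IC was lost without Normal replicate 1 (adjusted p = 0.0501), Normal replicate 3 (0.182) or IC replicate 3 (0.062) and with the replicate block (0.182), and that in IS-HA without Normal replicate 3 (0.0635). IS against IC gave 0.87 ± 0.40 (adjusted p = 0.226) and IS-HA against IS -0.40 ± 0.40 (adjusted p = 0.753).

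Il1r1, the signalling receptor, rose in IS, and in IC its call was held in 11 of 22 alternative settings. It stood at 3.20 and 2.97 TPM in Normal, 7.24, 12.3 and 5.27 in IC, 11.6, 6.74 and 9.60 in IS, and 7.25, 2.87 and 9.38 in IS-HA. All IC and IS rats were above Normal, and IS-HA replicate 2 was below both Normal rats. The log2 fold change was 1.35 ± 0.41 in IC (adjusted p = 0.0453) and 1.60 ± 0.42 in IS (adjusted p = 0.00955), with the call in IC lost without either Normal rat, without IC replicate 2 or 3, without any single IS rat or IS-HA replicate 1, on limma with TPM and with the replicate block (adjusted p up to 0.284), and that in IS without Normal replicate 3 (adjusted p = 0.0823). The 1.01 ± 0.41 in IS-HA was not called (adjusted p = 0.0814). Without IS-HA replicate 2 the last value was 1.28 ± 0.35 (adjusted p = 0.0202), and with a correction for gene length it was 1.23 ± 0.36 (adjusted p = 0.0247). Il1r1 is 1.61 times as long as the median gene tested, and the part of gene length in its low value in that rat was not tested further.

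Il1r2, the decoy receptor, had the largest difference between IS and IC among the 10 genes. Its TPM was 0.0947 and 0.387 in Normal and 1.01, 1.58 and 3.02 in IC. It was 11.7, 11.7 and 7.31 in IS and 2.12, 5.75 and 0.981 in IS-HA. Every IS rat was above every other rat, and IS-HA overlapped IC. Il1r2 rose against Normal in IS (log2 fold change 5.35 ± 0.96, adjusted p = 0.00142) and IS-HA (3.55 ± 0.98, adjusted p = 0.0205), and its 2.83 ± 0.99 in IC was not called (adjusted p = 0.0712). The value in IS-HA was 2.54 ± 0.80 without IS-HA replicate 2 (adjusted p = 0.0375). The call in IS-HA was lost without either Normal rat, with the replicate block and in a fit of IS-HA and Normal alone (adjusted p up to 0.119). The Normal rats held 1 and 4 counts, for which the 95% counting interval (exact Clopper-Pearson) in IS ran from 18.6 to 138-fold. IS against IC gave 2.52 ± 0.65 (adjusted p = 0.147) and IS-HA against IS -1.79 ± 0.64 (adjusted p = 0.54). Without IS-HA replicate 2 these were 2.53 ± 0.46 (adjusted p = 0.0218) and -2.81 ± 0.55 (adjusted p = 0.0376).

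Within each rat, Il1r2 was 0.0296 and 0.130 times the TPM of Il1r1 in Normal, 0.139, 0.128 and 0.572 times in IC, and 1.00, 1.73 and 0.761 times in IS. In IS-HA it was 0.292, 2.00 and 0.105 times. All IS ratios were above all IC ratios, and the 3 IS-HA ratios spread from below every IC value to above every IS value, with replicate 2 at the top. The log2 ratio was 2.34 higher in IS than in IC (exact permutation p = 0.1, the smallest that 3 against 3 rats allow, and 0.4 adjusted over the 10 ratio tests). IS-HA differed from IS by -1.48 (exact p = 0.4), and without IS-HA replicate 2 by -2.65 with both remaining rats below every IS rat (exact p = 0.2, the smallest that 3 against 2 allow).

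**Figure D3:**
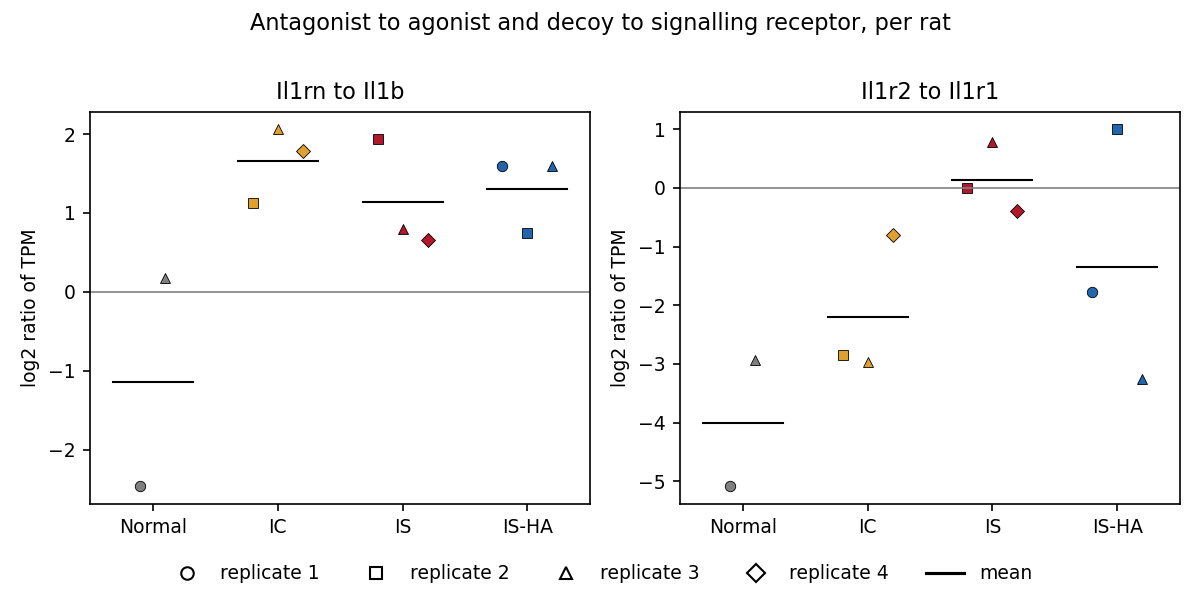
log2 ratio of TPM within each rat for Il1rn to Il1b (left) and Il1r2 to Il1r1 (right), with a bar for the group mean. Il1rn to Il1b lies above 0 in all hemorrhage rats, and Il1r2 to Il1r1 averages 0.13 in IS and -2.20 in IC.

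Of the inflammasome genes, Nlrp3, the sensor, rose to overlapping levels in IC and IS. It stood at 1.82 and 1.86 TPM in Normal, 10.5, 13.2 and 12.1 in IC, 12.1, 10.7 and 8.39 in IS, and 10.7, 3.87 and 14.0 in IS-HA. The groups after hemorrhage overlapped, and IS-HA replicate 2 was the lowest rat outside Normal. The log2 fold change was 2.64 ± 0.38 in IC (adjusted p = 0.000969), 2.50 ± 0.38 in IS (adjusted p = 0.000572) and 2.30 ± 0.38 in IS-HA (adjusted p = 0.00154, and 2.60 ± 0.23 without IS-HA replicate 2). IS against IC gave -0.14 ± 0.30 (adjusted p = 0.784).

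Pycard, the adaptor that links sensor and caspase, stood at 5.58 and 4.39 TPM in Normal, 39.7, 53.9 and 46.0 in IC, and 90.8, 80.9 and 114 in IS. In IS-HA it stood at 56.3, 165 and 55.8 TPM. Every IS rat was above every IC rat, and IS-HA replicate 2 was the highest of all rats while the other IS-HA rats lay between IC and IS. Pycard rose by a log2 fold change of 3.15 ± 0.60 in IC (adjusted p = 0.00495), 4.27 ± 0.63 in IS (adjusted p = 0.000483) and 4.28 ± 0.63 in IS-HA (adjusted p = 0.000822, and 3.34 ± 0.27 without IS-HA replicate 2). The call in IC was lost without Normal replicate 3 (adjusted p = 0.0773) and with the replicate block (0.065). IS against IC gave 1.11 ± 0.46 (adjusted p = 0.198, and 0.0214 without IS-HA replicate 2). IS-HA against IS gave 0.02 ± 0.45 (adjusted p = 0.996), which became -0.92 ± 0.22 (adjusted p = 0.0463) without IS-HA replicate 2 and stayed below the fold cutoff. Pycard is 0.406 times as long as the median gene tested, and with the length correction the value was -0.07 ± 0.31.

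Casp1, the protease, stood at 2.45 and 2.10 TPM in Normal, 11.3, 18.4 and 12.9 in IC, 18.9, 18.2 and 22.7 in IS, and 17.2, 20.4 and 15.0 in IS-HA. Gsdmd, the pore-forming substrate, stood at 4.64 and 3.84 TPM in Normal, 19.6, 27.1 and 23.6 in IC, 31.0, 26.6 and 33.2 in IS, and 23.9, 25.0 and 23.3 in IS-HA. Both were several-fold above Normal in all hemorrhage rats with a narrow spread, and the Gsdmd values of IS-HA were all just below the lowest IS rat. Casp1 rose by a log2 fold change of 2.57 ± 0.34, 3.14 ± 0.35 and 2.95 ± 0.35 in IC, IS and IS-HA (adjusted p = 0.000634, 9.96e-05 and 0.000241). Gsdmd rose by 2.40 ± 0.26, 2.85 ± 0.27 and 2.49 ± 0.26 (adjusted p = 0.000229, 4.44e-05 and 0.000133). For IS against IC the values were 0.57 ± 0.27 for Casp1 (adjusted p = 0.23) and 0.44 ± 0.21 for Gsdmd (adjusted p = 0.237), and for IS-HA against IS they were -0.20 ± 0.27 (adjusted p = 0.836) and -0.35 ± 0.21 (adjusted p = 0.601).

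Markers of myeloid cells moved with these genes. The summed level of 8 microglia and macrophage markers (Aif1, Csf1r, Itgam, Tyrobp, C1qa, C1qb, Cd68 and Fcer1g) was 193 to 291 TPM in Normal, 2056 to 2863 in IC, 3902 to 5125 in IS and 2741 to 4752 in IS-HA, and all 8 were called higher in each group than in Normal (10.9%, 18.8% and 15.1% of all genes). Homeostatic microglia markers (5, among them P2ry12 and Tmem119) summed to 162 to 186 TPM in Normal, 401 to 466 in IC, 368 to 399 in IS and 345 to 490 in IS-HA. The 5 monocyte markers (Ccr2, Vcan, Plac8, Fn1 and Ly6c) summed to 21.4 to 21.6, 76.3 to 164, 123 to 237 and 99.6 to 121 TPM in the same order. Most of this sum was Vcan and Fn1, which averaged 10.5 and 9.78 TPM in Normal and 35.1 and 95.4 in IS. Ccr2 averaged 0.0555 TPM in Normal and 4.12 in IS.

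The sum of the neutrophil markers was mostly S100a8 and S100a9 in the hemorrhage groups and mostly Csf3r in Normal (2.84 TPM, against 0.923 for S100a8 and 1.17 for S100a9). The summed level of 10 markers was 5.03 to 5.23 TPM in Normal and 86.0, 269 and 175 TPM in IC. It was 700, 505 and 526 TPM in IS and 170, 864 and 218 TPM in IS-HA. All IS rats were above all IC rats, and IS-HA replicates 1 and 3 were within the IC range while replicate 2 was above all others. Single markers differed from the sum, as Mmp8 averaged 9.71 TPM in IC and 8.98 in IS, and Ngp 1.07 and 0.687. All 6 markers tested (S100a8, S100a9, Elane, Cxcr2, Csf3r and Mmp8) rose against Normal in each group (10.9%, 18.8% and 15.1% of all genes called higher), and 4 granule markers (Mpo, Camp, Ngp and Retnlg) were too low to test. Elane, Cxcr2 and Mmp8 averaged 0, 0.0402 and 0.0319 TPM in Normal and passed the filter only through the hemorrhage groups. The count against Normal therefore carries no test. In IS against IC and in IS-HA against IS edgeR called 0 of the 6, with 5 and 2 at an unadjusted p under 0.05. The share of all genes at this p alone was not computed. With a log2 fold change of at least 1 as well, a stricter cutoff, it was 8.51% and 3.65%. DESeq2's Wald test called S100a9 and Cxcr2 higher in IS than in IC (1.63% of all genes) and Cxcr2 lower in IS-HA than in IS (0.121%). limma's voom called S100a8, S100a9, Elane and Cxcr2 higher (2.15%) and S100a8, S100a9 and Cxcr2 lower (0.603%), and edgeR without IS-HA replicate 2 called S100a8, S100a9 and Cxcr2 higher (2.19%) and S100a9 and Cxcr2 lower (0.541%). Mpo, Elane, Camp and Retnlg were at 0 counts in both Normal rats, and Mpo was also at 0 in all IC and IS rats. The part of neutrophils, monocytes and microglia in the levels of the 10 genes was not tested.

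**Figure D4:**
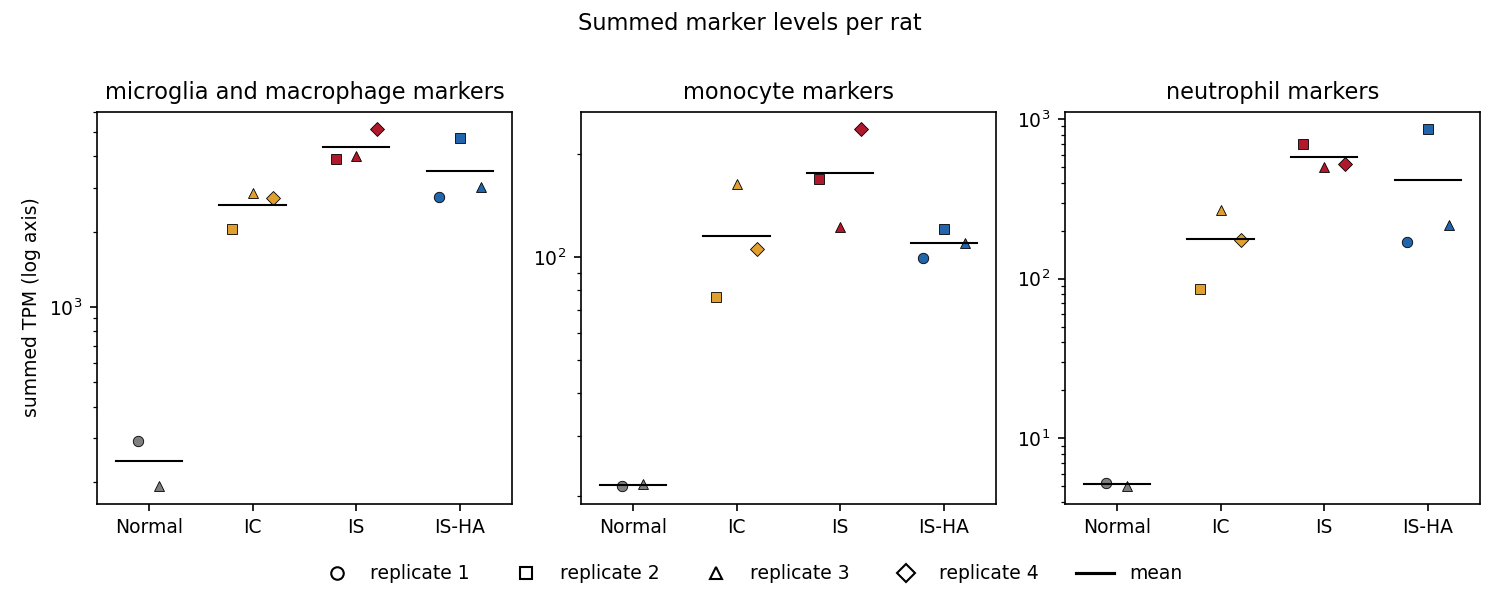
Summed TPM of microglia and macrophage, monocyte and neutrophil markers per rat on log axes, with a bar for the group mean. Neutrophil markers run from 505 to 700 TPM in IS and from 86.0 to 269 TPM in IC, with IS-HA replicate 2 at 864 TPM.

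Each gene was also set against the mean log2 CPM of 4 of the 8 microglia and macrophage markers (Aif1, Csf1r, Itgam and Tyrobp) in the same rat. The neutrophil markers were not part of this base. The 4 markers themselves differed, with log2 fold changes in IS against Normal of 3.82, 2.15, 2.79 and 5.41 in the order named. Those of Nlrp3, Gsdmd, Il18, Casp1, Pycard and Il1r2 (2.50 to 5.35) lay between them, so their sign against Normal depends on the marker chosen. Il1b (5.56) and Il1rn (7.28) lay above all 4 markers, and Il1r1 (1.60) and Il1a (1.85) below. On this relative scale the difference between IS and IC was 1.96 for Il1r2, 1.58 for Il1b, 1.10 for Il1rn and 0.61 for Pycard, with all IS rats above all IC rats. Nlrp3 was 0.63 lower (difference -0.63), with all IS rats below all IC rats. The other 5 genes overlapped, with differences from -0.40 for Il1a to 0.31 for Il18. The share of all genes whose groups stood apart on this scale was not computed for any comparison. The separations named here therefore describe these genes and were not set against other genes. For IS-HA against IS the relative difference was -0.94 for Il1rn with the groups apart, and -1.69 for Il1r2 and -1.09 for Il1b with overlap through IS-HA replicate 2. Without that rat these were -2.30 and -1.56, with both remaining rats below every IS rat, and Il1rn was at -1.15. Against Normal, Il1rn was 3.06 higher in IS relative to these markers, Il1b 1.35 and Pycard 0.69 higher, whereas Il1r1 (-1.95) and Il1a (-1.93) were lower, as were Nlrp3, Il18, Gsdmd and Casp1 (-1.07 to -0.45). With 8 markers in place of 4, Il1b was at 0.70, Pycard at 0.04, Nlrp3 at -1.71, Il18 at -1.36, Gsdmd at -1.34 and Casp1 at -1.10. In IC and IS-HA against Normal, the 4 markers gave 1.96 and 2.12 for Il1rn and 0.08 and 0.74 for Pycard. They gave -0.24 and 0.26 for Il1b and -0.98 and -0.71 for Il1r2. Of these, Pycard in IC and Il1b and Il1r2 in both groups overlapped Normal, as did Il1r2 in IS (0.98). Where the groups stood apart, the exact permutation p was 0.1 for 3 against 3 rats and 0.2 for comparisons with Normal, the smallest possible. The lowest of the 50 p-values after adjustment was 0.312.

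**Figure D5:**
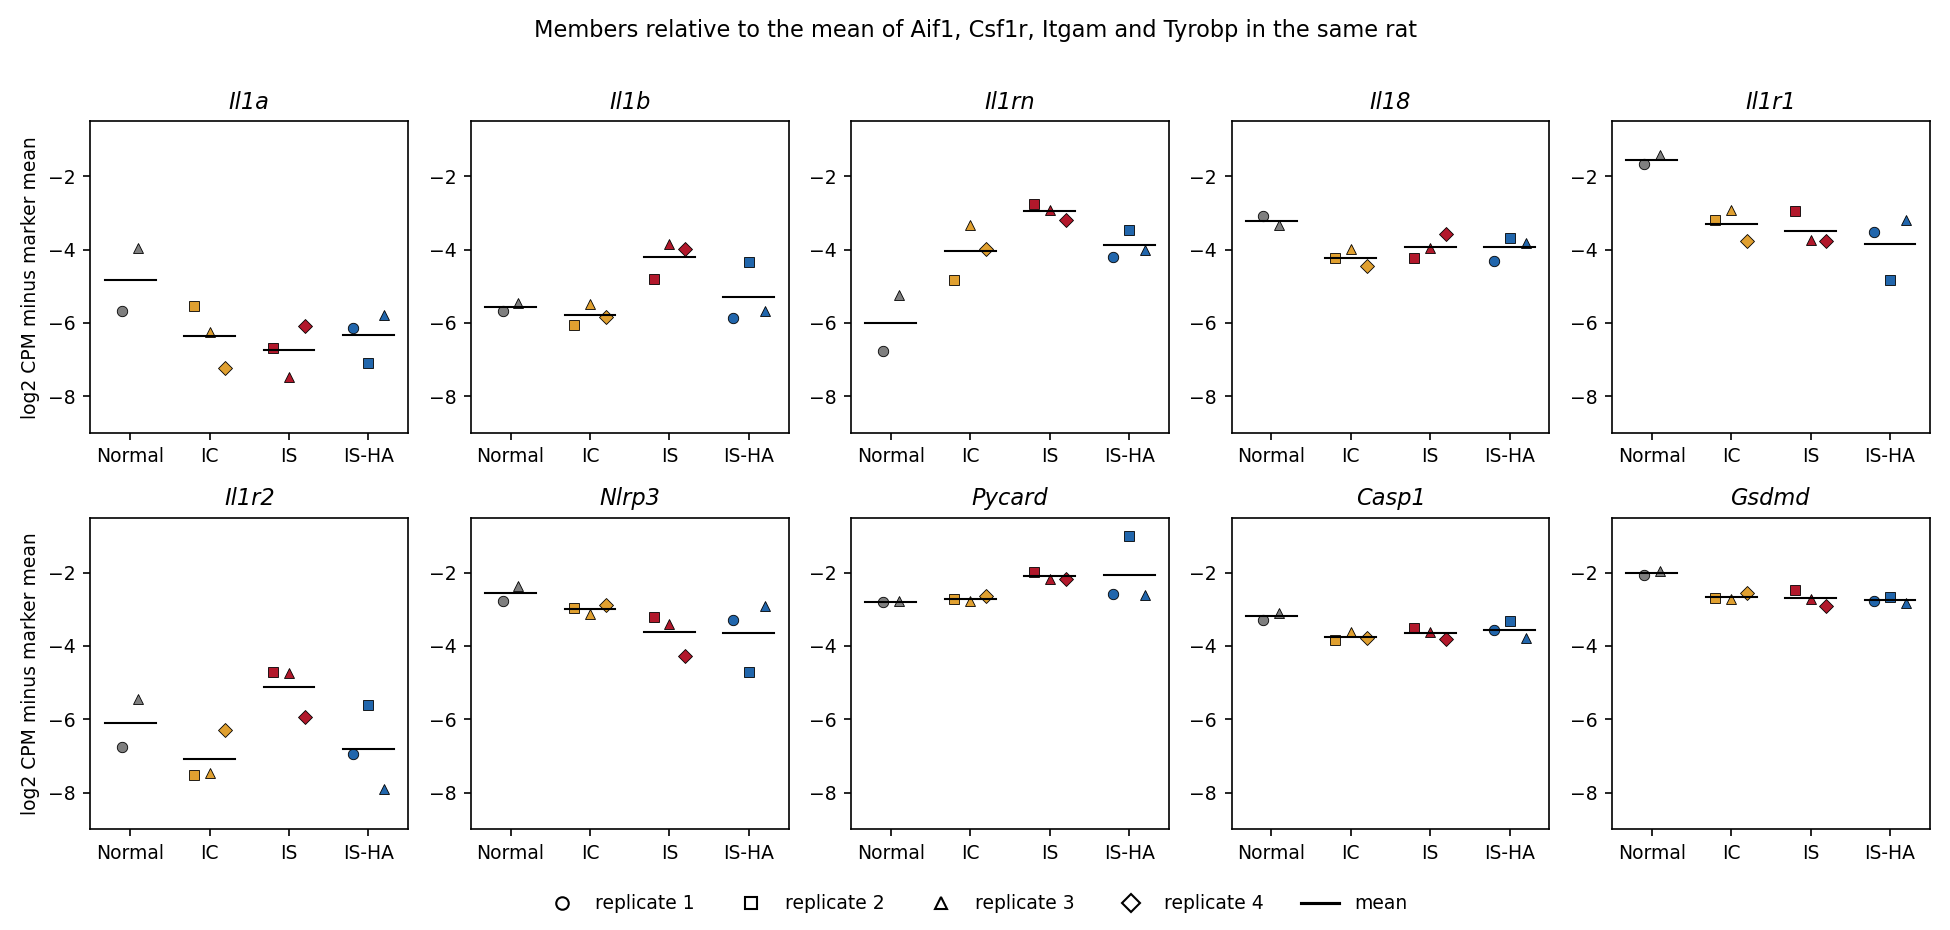
log2 CPM of each gene minus the mean log2 CPM of Aif1, Csf1r, Itgam and Tyrobp in the same rat, with a bar for the group mean. Il1b, Il1rn and Il1r2 are higher in IS than in IC on this scale, Nlrp3 is lower, and Casp1 and Gsdmd differ by 0.09 and -0.04.

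The other genes of the pathway were read from fixed lists. Members at the floor in Normal passed the filter on low counts only through the hemorrhage groups. The counts called against Normal on these lists therefore describe the genes and carry no test. Of 6 further IL-1 family ligands only Il33, an alarmin of glia, was abundant enough to test. Its mean was 15.3 TPM in Normal, 53.2 in IC, 65.7 in IS and 72.1 in IS-HA, and it rose by a log2 fold change of 1.72 ± 0.25, 2.12 ± 0.25 and 2.20 ± 0.25 (adjusted p = 0.000958, 0.000149 and 0.000219). Of 9 other receptors and binding proteins 6 were tested. Against Normal 2 rose in IC, 3 rose and 2 fell in IS, and 3 rose and 1 fell in IS-HA, to be read against the shares of all genes called higher and lower given before (18.8% and 17.0% in IS). Il18rap, the accessory chain of the IL-18 receptor, rose by 3.30 ± 0.49, 4.60 ± 0.50 and 4.08 ± 0.50, and Il1rl1, the IL-33 receptor, by 1.33 ± 0.39, 1.40 ± 0.39 and 1.70 ± 0.39. Il18bp, which neutralizes IL-18, rose in IS (1.66 ± 0.41, adjusted p = 0.00751) and IS-HA (1.34 ± 0.41, adjusted p = 0.0306), and its 0.98 ± 0.40 in IC was not called (adjusted p = 0.115). The call in IS-HA was lost without IS-HA replicate 2. Il1rapl1, a synaptic relative of the accessory chain, fell by 4.02 in IS (adjusted p = 0.00373) and by 2.77 in IS-HA (adjusted p = 0.021), and Il1rapl2 fell by 2.96 in IS (adjusted p = 0.0435). limma's voom also called Il1rapl1 lower in IC and Il1rapl2 lower in IS-HA, and edgeR without IS-HA replicate 2 called Il1rapl1 lower in IC. Il1rap, the accessory chain itself, had values of -0.35 ± 0.42, -1.07 ± 0.42 and -0.20 ± 0.42 and was not called by edgeR (adjusted p = 0.587, 0.0559 and 0.727), while DESeq2's Wald test, limma's voom and edgeR without IS-HA replicate 2 called it lower in IS.

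Of 12 genes of IL-1 receptor signalling 11 were tested, of which 3 rose in IC, 4 rose and 3 fell in IS, and 3 rose in IS-HA against Normal. Of all genes 10.9%, 18.8% and 15.1% were called higher, and 17.0% lower in IS. Myd88, the adaptor at the receptor, rose by 1.94 ± 0.28, 2.87 ± 0.29 and 2.11 ± 0.29, and the kinase Irak4 by 1.83 ± 0.32, 2.39 ± 0.33 and 2.11 ± 0.32. Irak3, an inhibitory member of the same family, rose by 1.12 ± 0.34, 1.99 ± 0.35 and 1.40 ± 0.34. Tab3, which binds the kinase TAK1, fell by 2.19 in IS (adjusted p = 0.0231). limma's voom lost Irak3 in IC and Traf6 in IS, and DESeq2's Wald test called Peli1 lower in IS-HA.

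Of 20 other inflammasome genes 17 were tested, and 10, 11 and 11 rose in IC, IS and IS-HA, against 10.9%, 18.8% and 15.1% of all genes. Nlrp12, for one, passed the filter only through the hemorrhage groups, so these counts carry no test. In IS 1 was lower (Gsdme, a gasdermin cleaved by caspase-3), against 17.0% of all genes, and limma's voom did not call it. Mefv, which encodes the sensor pyrin, rose by 4.34 ± 0.57, 5.02 ± 0.57 and 4.81 ± 0.57. Ninj1, which ruptures the membrane of dying cells, rose by 2.54 ± 0.61, 4.24 ± 0.66 and 3.15 ± 0.63. Casp4, the caspase that senses intracellular lipopolysaccharide, rose by 2.59 ± 0.39, 2.55 ± 0.39 and 2.93 ± 0.40. Naip6, of a family of receptors for bacterial proteins, rose by 2.86 ± 0.53, 3.76 ± 0.54 and 3.29 ± 0.54. Nlrp12, another NLR gene, was called higher in each group, with means of 0.311, 0.624 and 0.300 TPM against 0.0178 TPM in Normal, where it had a single count. Aim2, a sensor of cytosolic DNA, rose in IS (1.76 ± 0.60, adjusted p = 0.0324) and had 0.82 ± 0.59 in IC (adjusted p = 0.349) and 0.63 ± 0.60 in IS-HA (adjusted p = 0.434). Nlrc4 was not analysed here.

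Of 14 genes that IL-1 is known to induce 11 rose in each of the 3 comparisons with Normal (10.9%, 18.8% and 15.1% of all genes), and edgeR called Ptgs2, Vcam1 and Tnfaip3 in none. Il6, Cxcl2 and Csf3, at 0 in Normal, passed the filter only through the hemorrhage groups, so this count carries no test. DESeq2's Wald test called Ptgs2 lower in IS-HA and lost Nfkbia in IC, and Cxcl2 was lost with limma's voom in IC and IS-HA and without IS-HA replicate 2 in IS-HA, leaving 10 of 14 each time. Ccl2, which attracts monocytes, had a mean of 0.420 TPM in Normal, 104 in IC, 241 in IS and 103 in IS-HA, and rose by a log2 fold change of 7.81 ± 0.82, 9.10 ± 0.84 and 7.82 ± 0.82. It had 2 and 3 counts in the Normal rats. Lcn2, an iron-scavenging acute phase gene, rose from 1.63 TPM to 282, 276 and 317 TPM, with 7.37 ± 0.49, 7.42 ± 0.49 and 7.57 ± 0.49. Cxcl1, which attracts neutrophils, averaged 0.0662 TPM in Normal and 4.77, 11.9 and 7.71 TPM in IC, IS and IS-HA. Cxcl2, of the same class, was at 0 in both Normal rats and averaged 3.35, 38.1 and 2.59 TPM in IC, IS and IS-HA. Csf3, the granulocyte growth factor, was also at 0 in Normal and averaged 0.439, 2.84 and 0.752 TPM, and Il6, likewise at 0 in Normal, averaged 0.635, 1.30 and 0.582 TPM. These genes also answer to other cytokines.

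edgeR called 0 of the 49 genes tested on these 5 lists in IS against IC and in IS-HA against IS. At an unadjusted p under 0.05 there were 0, 2, 2, 5 and 9 genes in IS against IC, in the order above. In IS-HA against IS there were 0, 1, 1, 3 and 6, in all 18 and 11 of 49. The share of all genes at this p alone was not computed. With a log2 fold change of at least 1 as well, a stricter cutoff, it was 8.51% and 3.65% of all genes. The counts on the lists therefore cannot be set against these shares. DESeq2's Wald test called 4 genes higher in IS than in IC (Il18rap, Ninj1, Card19 and Cxcl2, with 1.63% of all genes) and 1 lower in IS-HA than in IS (Cxcl2, with 0.121%). limma's voom called 7 higher in IS (Il18rap, Ninj1, Cxcl1, Cxcl2, Ccl2, Mmp9 and Csf3, with 2.15% of all genes) and 4 lower in IS-HA (Ninj1, Cxcl2, Mmp9 and Csf3, with 0.603%). Without IS-HA replicate 2, edgeR called 5 higher (Il18rap, Ninj1, Cxcl2, Mmp9 and Csf3, with 2.19% of all genes) and 1 lower (Tab3, with 3.87%) in IS, and 4 lower in IS-HA (Ninj1, Cxcl2, Mmp9 and Csf3, with 0.541%).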

How the data were processed

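Poly(A) RNA of striatum from 11 rats was made into stranded libraries and sequenced as paired-end reads of 150 bases. The deposited table gave raw read counts for each gene and TPM, in which the authors had scaled those counts by gene length and to a common sum. The submitters' processing notes name fastp 0.20.0, HISAT2 2.1.0, SAMtools 1.9, featureCounts and the build mRatBN7.2. Columns were matched to rats by library name, and no rat was left out.

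Genes were filtered with filterByExpr of edgeR 4.0.16 (R 4.3.3), scaled by TMM factors, and all 4 groups entered a single quasi-likelihood fit with Benjamini-Hochberg adjustment over 15742 genes. The cutoffs (adjusted p under 0.05, log2 fold change of at least 1) are those of the study's methods, which used DESeq2. The SE of a log2 fold change was derived from it and its F statistic. Exact permutation tests (two-sided) served for ratios and marker-relative values. Relative values used log2 CPM. Alternatives were DESeq2 1.42.0, limma 3.58.1 (voom with quality weights, and trend on log2(TPM + 1)), other normalizations and filters, a fit on just the groups in a comparison, leaving out rats in turn, a replicate block and, chosen after seeing the data, a gene length correction. Gene lengths came from the ratio of counts to TPM.

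The 10 genes, the gene lists and the marker lists were chosen with earlier results of these data known. Named beyond the 10 were the called genes of each list with the largest changes (up to 4 a comparison), Il1rap, Il18bp, Il33, Casp4 and Aim2, and for each of the 10 the 3 genes nearest in pattern. Nlrc4, Trbc1, Hba-a1 and Hba-a2 were not analysed here. The script was tested on simulated data. Python 3.11.15, scipy 1.17.1 and matplotlib 3.10.9 served for the rest.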

Additional observations from a re-analysis of the deposited data

How the results depend on the processing

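Depth limits Il1a, Il1b, Il1rn and Il1r2, which held under 10 counts in some rats. With at least 10 counts in every rat these 4 could not be tested, and 5 of the other 6 were called in IS-HA against Normal. In IC against Normal the replicate block called 4 of the 10 genes, and with the gene length correction (added after the data were seen) 5. With each rat left out the calls ran from 4 to 9 in IC, 8 to 10 in IS and 5 to 9 in IS-HA against Normal, from 0 to 4 in IS against IC, and from 0 to 2 in IS-HA against IS. In IS against IC DESeq2's Wald test called 3 and voom 4, and in IS-HA against IS voom called 3. The other 103 counts of calls stayed within 1.5 times. Where a fit left 1 Normal rat, that rat was assumed to vary like the other groups. The cause of these shifts was not tested.

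The replicate numbers gave no clear pairing of the rats, as 2 of 11 same-numbered pairs correlated above 0.1. These values were centred within groups of 2 or 3 rats, which ties them together, so the correlations cannot decide on pairing. The replicate block lowered the genes called higher over all genes from 1720 to 824 in IC, from 2959 to 1827 in IS and from 2383 to 1657 in IS-HA against Normal. Without Normal replicate 3 they were 793, 2109 and 1205. In IS against IC, 0 genes over all were called by edgeR, 256 higher and 347 lower by DESeq2's Wald test, 338 and 442 by voom, and 348 and 616 without IS-HA replicate 2. In IS-HA against IS edgeR called 1 gene, the others 44 and 19, 195 and 95, and 395 and 86. With library size alone in place of TMM, higher and lower calls were 2045 and 211 in IC (1720 and 418 with TMM) and 2756 and 809 in IS-HA (2383 and 1213) against Normal, and with voom 2004 and 1086 in IC.

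Of 1080 values of log2 fold change 997 kept direction and side of the threshold, and 23 changed sign. For Il1a in IS against IC voom gave -0.29 and the block with length correction -0.07, and leaving out rats gave -0.62 to 0.55. For Il1a in IS-HA against IS the values were 0.01 with library size alone, 0.82 with voom, 0.08 with limma on TPM, 0.35 with the replicate block, 0.07 with length correction, 0.38 with both, and -0.43 to 0.76 leaving out rats. For Pycard in IS-HA against IS they were -0.01 with DESeq2's size factors, -0.02 with library size alone, -0.73 with voom, -0.23 with limma on TPM, -0.07 with length correction, and -0.92 to 0.33 leaving out rats. For Nlrp3 in that comparison voom gave 0.02, and leaving out rats gave -0.54 to 0.10, as it gave -0.68 to 0.09 for Il18. The Il1rn to Il1b log2 ratio in IS-HA against IS ran from -0.06 to 0.58.

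Relative to microglia and macrophage markers, the 8 markers in place of 4 changed the sign for Il1b in IS-HA against Normal (-0.33), Pycard in IC against Normal (-0.40), Casp1 in IS against IC (-0.07), and, in IS-HA against IS, Il18 (0.03), Nlrp3 (0.04) and Gsdmd (0.01). Leaving out rats gave -0.22 to 0.54 for Il1b in IS-HA against Normal and -0.16 to 0.06 for Gsdmd in IS against IC. In IS-HA against IS it gave -0.18 to 0.16 for Il18, -0.70 to 0.13 for Il1r1, -0.37 to 0.53 for Nlrp3, -0.48 to 0.32 for Pycard, -0.03 to 0.21 for Casp1 and -0.15 to 0.07 for Gsdmd. The 8 markers lowered Il1b in IS against Normal from 1.35 to 0.70.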

Other observations

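For each of the 10 genes the 3 genes nearest in pattern were found by the root mean square difference of log2 CPM over the 11 rats, each gene centred on its own mean. As the difference is over the same 11 libraries, it is a description and not a test. Nearest to Il1b were LOC100362384 (0.20, where Il1b itself varied by 1.73 about its mean), Slc16a3 (0.34), a lactate transporter, and Csf2ra (0.36), a chain of the GM-CSF receptor. Nearest to Il1rn were LOC120099372 (0.31, against 2.32 for Il1rn), Trem1 (0.37), an amplifying receptor of myeloid cells, and Bst1 (0.39). Nearest to Il1r2 were Rufy4 (0.48, against 1.66), Olah (0.50) and Lilrb1 (0.51).

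Nearest to Nlrp3 were Mastl (0.20, against 0.99 for Nlrp3), Tlr4 (0.23), the receptor for lipopolysaccharide, and Rbl1 (0.28). Nearest to Pycard were Rnaset2 (0.19, against 1.59), Lyl1 (0.19) and the immunoproteasome subunit gene Psmb8 (0.22). Nearest to Casp1 were Mmp14, Icam1 and Unc13d (0.15 each, against 1.13), and nearest to Gsdmd were Nsl1 (0.12), Sp100 (0.13) and Fhod1 (0.14, against 1.02). Il18 was nearest to Fhl3 (0.15), P2rx1 (0.18) and Mical1 (0.21), against its own 1.07. Il1r1 was nearest to Ets1 (0.19), Xrcc3 (0.20) and Limd1 (0.22), against 0.67. Il1a was the least closely followed for its own size, with Tlr12 at 0.40 against 0.88.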
